A study of Mus musculus with 6 samples.

Results

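Chemokines are small secreted proteins that direct the movement of leukocytes and other cells, and chemokine receptors are the G protein-coupled receptors that read them. The genes described here are those whose symbol on the array platform is Ccl, Cxcl, Ccr or Cxcr with a number, together with Xcl1, Cx3cl1 and Cx3cr1. They numbered 48 of the 18193 genes with a probe set of their own, 33 of them ligands and 15 receptors, and each was read through its probe set with the highest mean log2 signal on the 6 arrays. Total RNA came from the left lung lobe of C57/BL6 mouse embryos at E18.5, shortly before birth, as 3 pairs of 1 wild type animal and 1 animal with a conditional knockout (CKO) of Smad1, which encodes a nuclear effector of BMP receptors. By design the deletion was in lung epithelium only, so other cells of the lobe kept the gene. Neither the promoter that drove the recombinase nor the deleted part of Smad1 is given in the sources used here. Each lobe was hybridised to 1 Affymetrix Mouse430_2 array, and values are log2(intensity + 1) throughout unless an intensity is named. Differences are CKO minus wild type within pairs, as the mean ± SD over 3 pairs.

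The ligands fall into classes by the spacing of their first cysteines (CC, CXC, CX3C and XC), and receptors are named for the class they bind. Some ligands are made at a steady level by resident cells, such as Cxcl12, which holds progenitor cells and guides vessels through Cxcr4, while others, such as Cxcl1, Cxcl2 and Ccl2, are induced in inflammation and recruit neutrophils or monocytes. Cxcl15, called lungkine, is a mouse CXC chemokine made by lung epithelium and is known to attract neutrophils into the airspace.

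Sequence upstream of the start is shown for the 4 members that gave signal above a background reference, defined below, and were lower in the CKO lung of all 3 pairs, as were 42.4% of all genes above it. The 250 bases before the transcription start are from RefSeq (GRCm38.p6), 5′ to 3′ on the gene's strand, and capitals mark every match to the motifs searched on both strands, TATAAA, the Smad box CAGAC, the GC-rich Smad motif GGCGCC, the NKX2-1 type motif CAAGTG and an NF-kB motif (GGG, any 2 bases, then TTTCC).
Cxcl15 (chr5:90794284-90794533, plus strand): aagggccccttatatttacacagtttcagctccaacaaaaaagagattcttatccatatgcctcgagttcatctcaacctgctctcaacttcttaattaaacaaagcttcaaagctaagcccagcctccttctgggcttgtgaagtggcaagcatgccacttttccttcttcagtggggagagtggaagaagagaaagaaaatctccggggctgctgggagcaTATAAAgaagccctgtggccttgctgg
Cxcl12 (chr6:117168285-117168534, plus strand): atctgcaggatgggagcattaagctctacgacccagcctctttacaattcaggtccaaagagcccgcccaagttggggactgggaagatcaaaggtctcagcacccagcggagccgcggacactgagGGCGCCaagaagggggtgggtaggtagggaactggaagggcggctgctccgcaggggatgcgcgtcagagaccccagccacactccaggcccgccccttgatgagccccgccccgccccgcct
Cxcr4 (chr1:128592300-128592549, minus strand): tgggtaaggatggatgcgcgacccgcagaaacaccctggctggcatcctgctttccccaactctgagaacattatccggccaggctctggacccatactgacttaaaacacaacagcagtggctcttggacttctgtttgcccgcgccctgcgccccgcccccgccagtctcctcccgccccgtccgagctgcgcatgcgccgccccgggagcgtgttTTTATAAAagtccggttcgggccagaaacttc
Cx3cr1 (chr9:120068297-120068546, minus strand): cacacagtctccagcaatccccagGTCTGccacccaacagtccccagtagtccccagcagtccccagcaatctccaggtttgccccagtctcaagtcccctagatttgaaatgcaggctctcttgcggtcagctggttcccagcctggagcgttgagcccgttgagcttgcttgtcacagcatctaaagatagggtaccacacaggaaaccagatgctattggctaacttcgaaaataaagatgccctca
The Cxcl15 window held TATAAA once, at -27 from the start, and none of the other motifs. In the Cxcr4 window TATAAA was read on both strands from the overlapping letters TTTATAAA, which begin at -32. Cxcl12 held GGCGCC, a palindrome, at -123, and Cx3cr1 held 1 Smad box on its other strand, at -226. Of 32851 RefSeq promoter windows of this length, 12.4% held TATAAA, 42.2% the Smad box, 9.59% GGCGCC, 11.6% CAAGTG and 1.41% the NF-kB motif. A promoter entry was found for 35 of the 48 members. TATAAA was held by 10 of these 35 genes (28.6%), the Smad box by 14 (40.0%), GGCGCC by 2 (5.71%) and CAAGTG by 3 (8.57%). The NF-kB motif was held by 6 (17.1%), namely Ccl20, Ccl9, Ccr3, Cxcl1, Cxcl2 and Cxcl3. These are matches of letters, and a gene with several start sites had more windows to match in.

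Signal of Smad1, the targeted gene, ran from 9.53 to 10.09 among wild type and from 9.05 to 10.62 among CKO lungs. Its difference of 0.06 ± 0.51 did not pass (limma, adjusted p = 0.904), and whether the probes lie in the deleted part is not given, so this is no check of the labels. The arrays differed in their controls as well. The control signal for 18S ribosomal RNA was 2887 on the array of Smad1 CKO 3, against 243 to 297 on the other 5, and its beta-actin control was 5820 against 18445 to 20900. In pair 3, which holds this array, bright probe sets lay lower and dim ones higher. Among all genes the median difference of pair 3 was -0.73 above the background reference and 0.36 at or below it, against -0.02 and 0.03 in pair 2 and -0.26 and 0.25 in pair 1. Smad1 CKO 1 differed in sex-linked genes, with Xist at 10.95 against 6.07 to 7.70 elsewhere and the Y-linked Eif2s3y at 3.78 against 7.06 to 9.04. Wild type 1, its partner, had Xist at 6.23 and Eif2s3y at 8.66. By these genes sex and genotype cannot be told apart in pair 1. Epithelial signal was looked for in 8 general epithelial and 9 alveolar type 2 markers. All of them lay above the background reference, as did 11609 of all 18193 genes. So did all 9 fibroblast and all 10 endothelial markers, so this does not set epithelium apart from other cells of the lobe. Values without pair 3, or without Smad1 CKO 3 in a fit that ignores the pairs, are given beside many of the members. So are values after cyclic loess normalization between arrays, which evens out shifts that depend on brightness and moved the median of all genes from -0.09 to 0.05.

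Signal above background in wild type lung was seen for 19 of the 48 members, against 12062 of all 18193 genes. As a reference for background, 38 olfactory receptor genes, which are not expected in lung, had a median wild type level of 4.81 and a 95th percentile of 6.04. Above that percentile lay 14 of 33 ligands and 5 of 15 receptors, and the same 19 did so by their mean on the 6 arrays against the matching percentile of 6.29. The median member lay at 5.77, against 7.22 for the median gene. Brightness orders probe sets and not amounts of RNA, since probes differ in their response, and a probe set below the reference does not show that the RNA was absent.

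**Figure D1:**
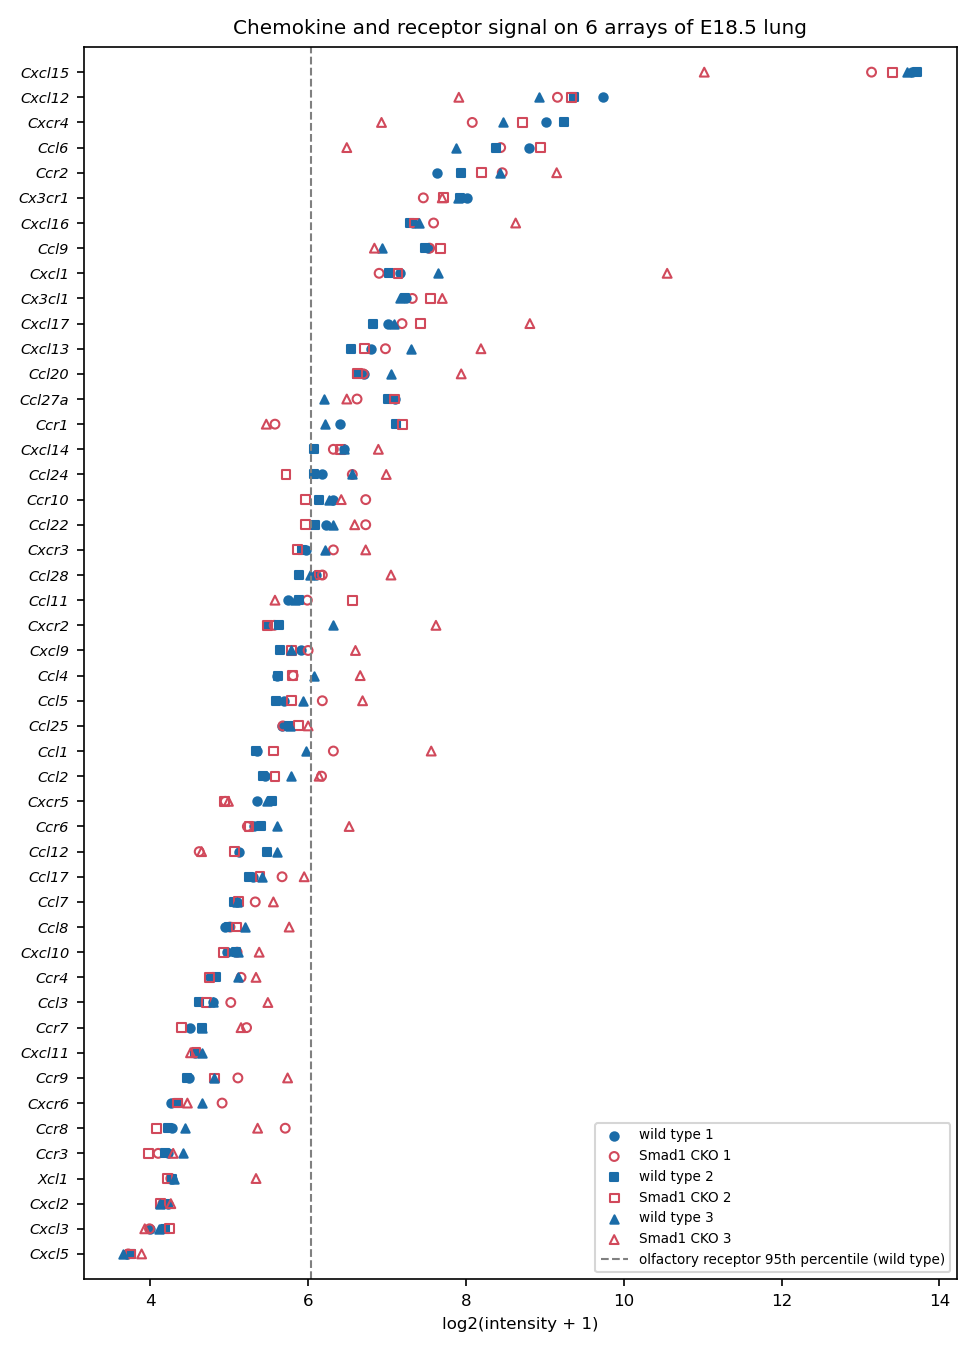
Signal of the 48 chemokine and receptor genes as log2(intensity + 1) on the x axis, with 1 row per gene ordered by wild type mean, filled points for 3 wild type lungs, open points for 3 CKO lungs and a shape for each pair. The dashed line is the 95th percentile of olfactory receptor genes in wild type lung (6.04); Cxcl15 stands alone near 13.65, and 29 members lie below the line.

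Cxcl15 was the brightest member. Its intensity was 12846, 13513 and 12291 in wild type lungs 1 to 3, the 26th brightest of the 18193 genes, and 9040, 10870 and 2074 in CKO lungs 1 to 3. Every CKO lung lay below every wild type lung, a separation found in 6.05% of all genes, and the wild type lungs were tightly grouped (13.65 ± 0.07 on the log2 scale, SD, n = 3) while the CKO lungs were spread by Smad1 CKO 3 (12.52 ± 1.31). The log2 difference was -1.13 ± 1.25, a 2.19-fold lower intensity, with -0.51, -0.31 and -2.57 in pairs 1 to 3 and a 95% interval of -2.26 to 0.00. It did not pass across all probe sets (limma, unadjusted p = 0.0507, adjusted p = 0.367). The dimmer of its 2 probe sets gave -1.57 ± 1.15, with -1.04, -0.77 and -2.89 in the pairs (unadjusted p = 0.0113, adjusted p = 0.367). The brighter probe set stood at -0.41 once pair 3 was left out (adjusted p = 0.588). It stood at -0.38 once Smad1 CKO 3 alone was left out (adjusted p = 0.917).

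Most genes of similar brightness were lower in pair 3 too. The 44 genes with a mean between 13.0 and 13.5 over the 6 arrays, Cxcl15 included, had medians of -0.12, 0.00 and -1.98 in pairs 1 to 3. The brighter Cxcl15 probe set lay below these medians in every pair. After cyclic loess normalization its difference was -0.44 (unadjusted p = 0.0268, adjusted p = 0.336).

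Markers of the epithelial cells that make surfactant were lower beside Cxcl15. Of 9 alveolar type 2 markers measured, 8 were lower in all 3 pairs, and their medians were -1.10, -0.84 and -2.56 in pairs 1 to 3. Their summed intensity was 70719 to 80712 in wild type lungs and 41287, 47237 and 13340 in CKO lungs 1 to 3. Among them Sftpa1, which encodes surfactant protein A, differed by -5.17 ± 1.04 and the surfactant lipid transporter gene Abca3 by -1.88 ± 0.78 (adjusted p = 0.102 and 0.367). Sftpd (0.01 and 0.09) and Napsa (-0.03 and -0.02) stayed near 0 in pairs 1 and 2. Both were at -1.57 in pair 3. All 8 alveolar type 1 markers were lower in all 3 pairs, with medians of -0.47, -0.38 and -2.06. The 8 general epithelial markers had medians of -0.02, 0.10 and -1.39, with 3 of the 8 lower in every pair and summed intensity of 17784 to 19056 in wild type and 16358, 20208 and 5822 in CKO lungs. Club and airway secretory markers had medians of -0.08, 0.05 and -1.22, with 2 of 7 lower and 1 higher in all 3 pairs. Scgb1a1, the main club cell secretory protein gene, was at -0.80 ± 0.99 and Aldh1a1 at -1.08 ± 0.56, while the secretoglobin gene Scgb3a1 was at 0.93 ± 0.88 and the mucin gene Muc5b at 0.37 ± 0.08. After cyclic loess normalization the median was -0.89 for alveolar type 2 and -0.33 for alveolar type 1 markers. It was 0.16 for general epithelial and 0.12 for club and airway markers, the other side of 0. Mesothelial, lymphatic endothelial and proliferation medians were also below 0 in every pair, and stood at -0.35, 0.02 and -0.68 after this normalization. The part of these cell types in the Cxcl15 value was not tested. In a whole lobe, fewer cells of a type and less RNA per cell cannot be told apart.

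**Figure D2:**
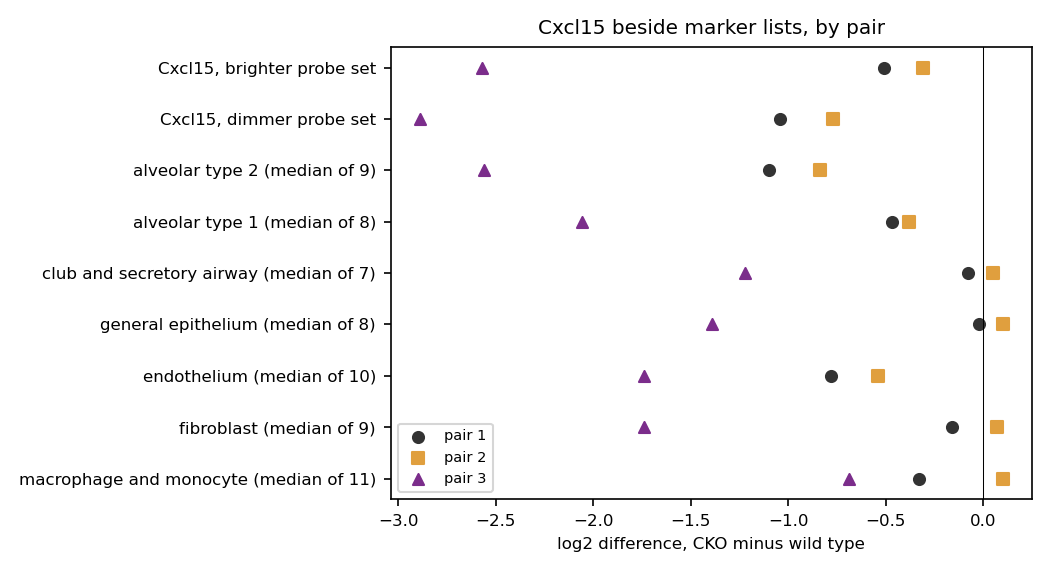
Log2 difference (CKO minus wild type, x axis) of both Cxcl15 probe sets and of the median of 7 marker lists, with 1 point per pair of lungs. Both Cxcl15 probe sets lie below 0 in every pair, as do the alveolar type 2, alveolar type 1 and endothelial medians, while general epithelial markers lie near 0 in pairs 1 and 2 (-0.02 and 0.10). Of the marker lists not shown, the mesothelial, lymphatic endothelial and proliferation medians were also below 0 in every pair.

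Genes next to Cxcl15 did not share one direction. In the RefSeq gene order the nearest protein-coding genes to Cxcl15 are Cxcl5, Ppbp, Pf4 and Cxcl3 on one side and Cxcl1 and Cxcl2 on the other. Cxcl5, Cxcl3 and Cxcl2, whose products attract neutrophils, stayed under the reference, with wild type levels of 3.71, 4.10 and 4.18 and differences of 0.08, -0.04 and 0.00. Ppbp and Pf4 encode chemokines stored in platelets, carry other kinds of symbol and are no members. Ppbp was at 7.60 in wild type and differed by -1.29 ± 0.18, with -1.46, -1.11 and -1.30 in the pairs (limma, unadjusted p = 0.000572, adjusted p = 0.367). For Pf4 the values were 8.83 and -0.54, with -0.30, -0.08 and -1.24 in the pairs. Of 5 platelet and megakaryocyte markers measured, none was lower in all 3 pairs, and their medians were 0.17, -0.20 and 0.21.

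Cxcl12 and its receptor Cxcr4 were the next brightest members, and both lay lower in the CKO lung of each pair. Cxcr4 was at 9.02, 9.24 and 8.47 in wild type lungs and at 8.08, 8.72 and 6.93 in CKO lungs 1 to 3. Its groups overlapped, since CKO lung 2 lay above wild type lung 3, but within pairs the differences were -0.94, -0.52 and -1.55. With -1.0 ± 0.52, a 2.00-fold lower intensity and a 95% interval of -1.62 to -0.38, it had the smallest unadjusted p of the 48 members (0.00764) and did not pass (limma, adjusted p = 0.367). The difference was -0.73 without pair 3, -0.51 without Smad1 CKO 3 (unadjusted p = 0.129) and -0.60 after cyclic loess normalization (unadjusted p = 0.00662).

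Cxcl12 was at 9.74, 9.37 and 8.92 in wild type lungs and at 9.16, 9.34 and 7.91 in CKO lungs. Pair 2 hardly differed (-0.03), against -0.58 in pair 1 and -1.01 in pair 3, and the mean was -0.54 ± 0.49 (adjusted p = 0.367). Its second probe set gave -0.49, -0.33 and -0.68, a mean of -0.50 ± 0.18, and its dimmest gave 0.08, so the 3 did not all point one way. The brightest probe set stood at -0.31 without pair 3, -0.09 without Smad1 CKO 3 and -0.08 after cyclic loess normalization. All genes of its brightness (9.0 to 9.5) had medians of -0.33, -0.04 and -1.0 in pairs 1 to 3, near its own values. At the brightness of Cxcr4 (8.0 to 8.5) they were -0.33, -0.05 and -0.75.

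Ackr3, an atypical receptor that removes Cxcl12, was likewise lower in all 3 pairs, at -0.64, -0.19 and -1.45 (mean -0.76, unadjusted p = 0.0372). Endothelial markers, of a cell type in which Cxcr4 is known, were lower in all 3 pairs in 10 of 10 genes. All 10 lay above the reference, where 42.4% of all genes were lower in all 3 pairs. The medians of the endothelial markers were -0.78, -0.54 and -1.74. Their summed intensity was 11884 to 16655 in wild type lungs and 10432, 11159 and 3240 in CKO lungs 1 to 3. Fibroblast markers had medians of -0.16, 0.07 and -1.74, with summed intensity of 41227 to 52006 in wild type and 45958, 49446 and 10531 in CKO lungs. After cyclic loess normalization the endothelial median was -0.52, with 10 of 10 genes below 0, against 46.3% of all genes above the reference. The fibroblast median was then 0.05. The part of either cell type in the values of Cxcr4 and Cxcl12 was not tested.

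**Figure D3:**
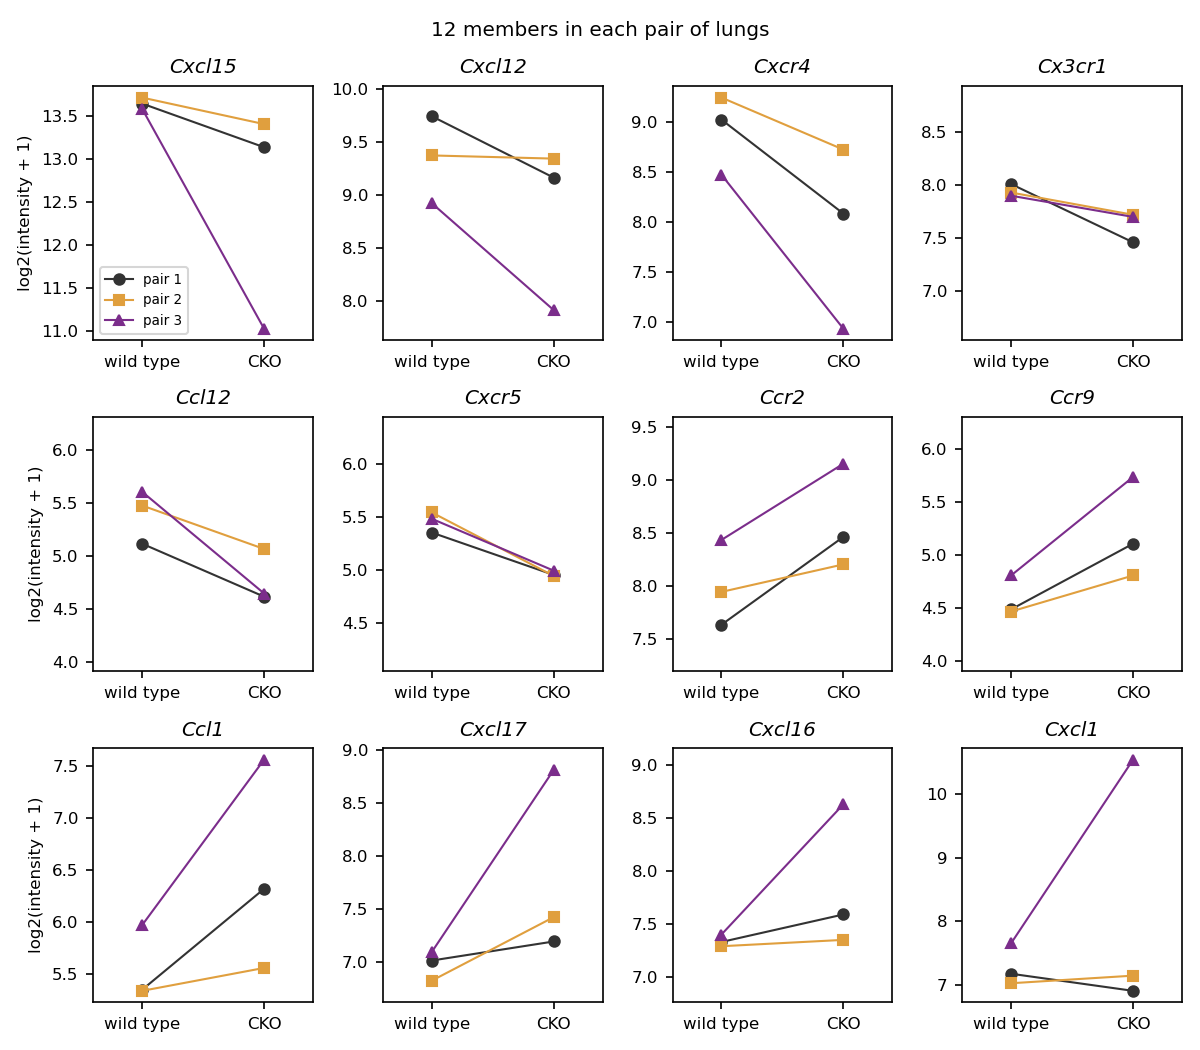
Log2(intensity + 1) of 12 members in the wild type and the CKO lung of each pair, joined by a line per pair; each panel has its own y axis. Cxcl15, Cxcl12, Cxcr4, Cx3cr1, Ccl12 and Cxcr5 slope down in all 3 pairs, and Ccr2, Ccr9, Ccl1, Cxcl17 and Cxcl16 slope up. Cxcl1 jumps in pair 3 alone (2.91), by a probe set that was not its brightest in wild type lungs.

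Receptors of monocytes and macrophages did not share one direction. Cx3cr1, the fractalkine receptor of monocytes and tissue macrophages, was at 8.01, 7.93 and 7.90 in wild type lungs and at 7.46, 7.72 and 7.70 in CKO lungs, with no overlap between the groups. Its difference was -0.32 ± 0.20 (unadjusted p = 0.149), and -0.01 after cyclic loess normalization, while its dimmer probe set gave -0.08. Ccr1, a receptor of monocytes and neutrophils, differed by -0.82, 0.09 and -0.75 (mean -0.49, unadjusted p = 0.0972, and -0.19 without Smad1 CKO 3).

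Ccr2, which draws monocytes out of the bone marrow, was at 7.63, 7.94 and 8.43 in wild type lungs and at 8.46, 8.20 and 9.15 in CKO lungs by its brightest probe set. That set was higher in each pair (0.83, 0.26 and 0.72, mean 0.60 ± 0.30, unadjusted p = 0.0283, adjusted p = 0.367). Its other 3 probe sets gave -0.15, 0.10 and 0.22, and none of these was higher in all 3 pairs. Without Smad1 CKO 3 its brightest set gave 0.33, and after cyclic loess normalization 0.99. Of 11 macrophage and monocyte markers measured, 3 were lower and 2 higher in all 3 pairs, against 42.4% and 9.44% of genes above the reference. Of the 11, 10 lay above it. Their medians were -0.33, 0.10 and -0.69 in pairs 1 to 3. Their median difference, -0.16, was 0.10 after cyclic loess normalization. Their summed intensity was 9914 to 15880 in wild type and 8463, 9644 and 3770 in CKO lungs, and their part in the receptor values was not tested.

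Ligands of these receptors were mostly dim. Cx3cl1, the membrane-bound ligand of Cx3cr1, was at 7.24, 7.23 and 7.17 in wild type and at 7.32, 7.55 and 7.70 in CKO lungs, without overlap. All 4 of its probe sets were higher, by 0.23 to 0.63, with 0.31 ± 0.23 for the brightest (unadjusted p = 0.170, and 0.20 without pair 3), so ligand and receptor lay on opposite sides of 0 without either passing. Ccl2, the main ligand of Ccr2, lay under the reference at 5.45, 5.43 and 5.78 in wild type and 6.17, 5.58 and 6.14 in CKO lungs (0.41 ± 0.29, unadjusted p = 0.0927). Ccl12, another Ccr2 ligand, went the other way. It was at 5.12, 5.48 and 5.61 in wild type and at 4.62, 5.07 and 4.65 in CKO lungs, also under the reference, and the groups did not overlap. The difference of -0.62 ± 0.29 did not pass (unadjusted p = 0.0235, adjusted p = 0.367).

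Ccl6 and Ccl9, CC ligands of myeloid cells, were above the reference but did not differ in a settled direction. Ccl6 was at 8.80, 8.38 and 7.87 in wild type and at 8.44, 8.95 and 6.49 in CKO lungs, a difference of -0.39 ± 0.97 that became 0.11 without pair 3. Ccl9 was at 7.52, 7.48 and 6.94 in wild type and at 7.54, 7.68 and 6.84 in CKO lungs (0.04 ± 0.15).

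Several CXC ligands were high on the array of Smad1 CKO 3. Cxcl1, a neutrophil attractant, was at 7.17, 7.02 and 7.65 in wild type and at 6.90, 7.14 and 10.55 in CKO lungs, so that its mean difference of 0.92 ± 1.73 came from pair 3 alone (-0.27, 0.12 and 2.91). Without that pair it was -0.08, and the other 2 probe sets of Cxcl1 gave 0.35 and -0.20 in pair 3. The Cxcl1 probe set used was taken for its mean over all arrays, its 10.55 on Smad1 CKO 3 included. In wild type lungs alone another was brighter, at 7.49 against 7.28. That set gave 0.24 (limma, unadjusted p = 0.245), with 0.35 in pair 3. Cxcl17, a chemokine of mucosal surfaces, was at 7.01, 6.82 and 7.09 in wild type and at 7.19, 7.42 and 8.81 in CKO lungs. Its groups did not overlap, and the pairs gave 0.17, 0.60 and 1.72 (mean 0.83 ± 0.80, unadjusted p = 0.0441, adjusted p = 0.367). Without pair 3 the Cxcl17 difference was 0.39, and it was 0.33 without Smad1 CKO 3. Cxcl16, a membrane-bound ligand of Cxcr6, was at 7.33, 7.29 and 7.40 in wild type and at 7.59, 7.35 and 8.63 in CKO lungs (0.52 ± 0.62, unadjusted p = 0.114). It came to 0.16 without pair 3, and its second probe set gave -0.08. The all-gene median of pair 3 was -0.21 at the brightness of Cxcl17 (7.0 to 7.5). It was -0.55 at that of Cxcl1 and Cxcl16 (7.5 to 8.0). In pair 3 these 3 ligands thus stood on the opposite side of 0. So did Cxcl13 (0.90), Cx3cl1 (0.52) and Ccr2 (0.72), at whose brightness the all-gene medians were -0.21, -0.21 and -0.75. The ranges are of means over all arrays, so that of Cxcl1 holds its reading on Smad1 CKO 3.

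The remaining ligands above the reference had wild type levels from 6.21 to 6.88. Cxcl13, which guides B cells, differed by 0.41 ± 0.42, Ccl20, the ligand of Ccr6, by 0.30 ± 0.51, and Cxcl14 by 0.21 ± 0.31. Ccl27a, a skin chemokine, was at -0.03 ± 0.40, while Ccl24, an eosinophil attractant, and Ccl22 were at 0.16 and 0.22. Without Smad1 CKO 3 Cxcl13 was at -0.04, Ccl20 at -0.13, Ccl24 at -0.13 and Cxcl14 at 0.03, and Ccl27a was at 0.09, so 4 of these ligands then lay on the other side of 0. Ccr10, the receptor of Ccl27a and Ccl28, was at 0.14 ± 0.30.

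Of the 29 members at or below the reference, 24 had a mean difference above 0 and 5 (17.2%) one below it, against 1055 of 6584 genes of such brightness below it. Ccl1, a T cell attractant, was at 5.35, 5.34 and 5.97 in wild type and at 6.32, 5.56 and 7.56 in CKO lungs (0.93 ± 0.68, unadjusted p = 0.0205, adjusted p = 0.367). It gave 0.59 without pair 3 and 0.39 without Smad1 CKO 3. Ccr8, its receptor, was at 4.27, 4.23 and 4.44 in wild type and at 5.71, 4.08 and 5.36 in CKO lungs, with pair 2 on the other side of 0 (0.74 ± 0.81, unadjusted p = 0.0672). It gave 0.41 without Smad1 CKO 1 and 1.22 without Smad1 CKO 2. Ccr9, a receptor of thymocytes and gut T cells, was at 4.49, 4.47 and 4.81 in wild type and at 5.11, 4.81 and 5.74 in CKO lungs. Its difference was 0.63 ± 0.30 (unadjusted p = 0.0238, adjusted p = 0.367), 0.37 without Smad1 CKO 3, and its 5 probe sets ranged from 0.01 to 0.63. The probe set at 0.63 was taken for its mean over all 6 arrays, CKO lungs included. In wild type lungs alone another was brighter, at 4.74 against 4.59, and it gave 0.14 (limma, unadjusted p = 0.498).

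Ccl5, which draws T cells and monocytes, was at 5.70, 5.59 and 5.93 in wild type and at 6.18, 5.79 and 6.69 in CKO lungs (0.48 ± 0.28, unadjusted p = 0.0583), a difference of 0.25 without Smad1 CKO 3. Cxcr5, the receptor for Cxcl13 on B cells, was among the few dim members that were lower. It was at 5.35, 5.54 and 5.48 in wild type and at 4.95, 4.94 and 4.99 in CKO lungs, with no overlap and little spread between pairs (-0.50 ± 0.10, unadjusted p = 0.0355, adjusted p = 0.367). The difference was -0.50 without pair 3 as well and -0.69 after cyclic loess normalization. Of 7 B cell markers 3 were higher and 1 lower in all 3 pairs, and of 11 T and NK cell markers 5 were higher and 1 lower. Only 2 and 4 of these markers, respectively, lay above the reference. Of all genes at or below it, 41.3% were higher and 6.29% lower in all 3 pairs. The counts of higher markers are near 41.3%, and the part of these markers in the values was not tested. The interferon-induced Cxcl9, Cxcl10 and Cxcl11 were at 0.35, 0.08 and -0.04, and Cxcl9 at 0.11 without Smad1 CKO 3. The dimmer Cxcl9 probe set gave 0.79, with 1.03, 0.18 and 1.16 in the pairs (limma, unadjusted p = 0.0223, adjusted p = 0.367).

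As a group the members were called by no adjusted test. With limma, 0 of 48 passed at an adjusted p under 0.05, against 0.00222% of the 45037 probe sets, and at an unadjusted p under 0.05 there were 3 lower (Cxcr4, Ccl12 and Cxcr5) and 4 higher (Ccl1, Ccr9, Ccr2 and Cxcl17). The same limit was passed by 9.96% of all genes in the lower and 4.96% in the higher direction. So 7 of 48 members (14.6%) is close to the 14.9% of all genes in either direction. Among the 7, Ccr9 is counted through a probe set that was not its brightest in wild type lungs. In all 3 pairs 7 members were lower and 17 higher, against 29.3% and 21.0% of all genes. Groups did not overlap in 8 members. The CKO lungs were below all wild type lungs for Cxcl15, Cx3cr1, Ccl12 and Cxcr5 (6.05% of all genes), and above them for Cxcl17, Cx3cl1, Ccl28 and Ccl7 (4.25% of all genes).

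Brightness has to be read beside these counts. Among members above the reference 4 of 19 were lower and 5 of 19 higher in all 3 pairs, against 42.4% and 9.44% of all genes above it, and their median difference was 0.16, against -0.37. These members were dimmer than other genes above the reference, with a median wild type level of 7.22 against 8.41. For members at or below the reference, 3 of 29 were lower and 12 of 29 higher in all 3 pairs, against 6.29% and 41.3% of such genes, with medians of 0.25 and 0.24. In pairs 1, 2 and 3, 10, 7 and 7 of the 19 were lower, against 75.5%, 55.0% and 78.0% of genes above the reference. Of the 29 it was 7, 14 and 7, against 24.2%, 42.2% and 18.3%. Above the reference 2 of 19 members had every CKO lung below every wild type lung (8.55% of such genes) and 2 had every one above (1.98%). At or below it the counts were 2 of 29 in each direction (1.64% and 8.26% of such genes). After cyclic loess normalization the medians above the reference were 0.18 for members and 0.03 for all genes. Without pair 3 they were 0.09 and -0.14.

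**Figure D4:**
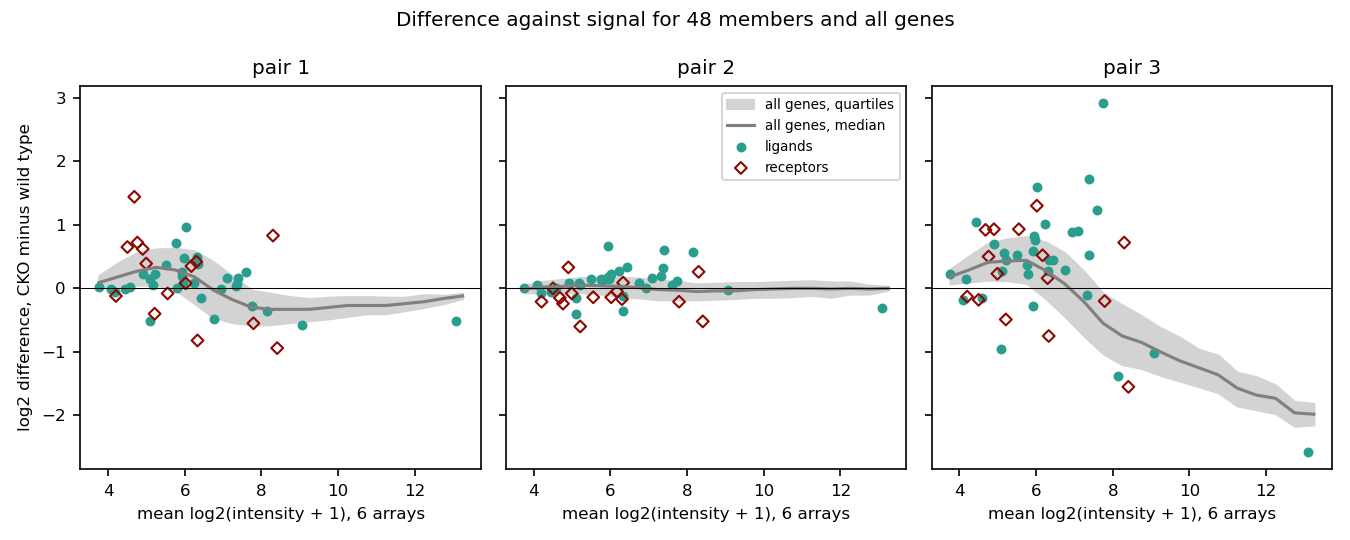
Log2 difference (CKO minus wild type, y axis) against mean log2(intensity + 1) over 6 arrays (x axis) for 33 ligands and 15 receptors in each pair; the grey line and band are the median and quartiles of all genes in steps of 0.5. Pair 2 is flat, and pair 3 falls from 0.44 near level 6 to -1.98 near 13. Cxcl1, Cxcl17 and Cxcl16 lie above the band in pair 3, as do Ccr2, Cxcl13, Cx3cl1, Ccl20 and some dimmer members. Cxcl1 is shown by a probe set that was not its brightest in wild type lungs.

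Ligands and receptors are given side by side. Of 33 ligands, 3 were lower and 15 higher in all 3 pairs (median 0.24), and of 15 receptors 4 were lower and 2 higher (median 0.18). Without Smad1 CKO 3 both medians were 0.05. Of the ligands 22, 24 and 25 were higher in pairs 1, 2 and 3, and of the receptors 9, 3 and 9. Ligands and receptors thus lay mostly on opposite sides of 0 in pair 2 and not in the other pairs, and their difference was not tested. CC ligands, 18 in all, ranged from -0.62 to 0.93, and the 13 CXC ligands from -1.13 to 0.92.

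Other genes of the chemokine system were read from 4 further lists, and 0 of their members passed at an adjusted p under 0.05 (limma). Among 17 related chemokines and atypical or decoy receptors, 8 were lower and 1 was higher in all 3 pairs (median -0.36), and 5 were lower at an unadjusted p under 0.05. They were Ppbp, Ackr3, Ackr2, a scavenger of CC chemokines at -0.60 ± 0.04, Ccrl2 at -0.60 ± 0.15 and Cmtm3 at -0.86 ± 0.69. For all genes the shares were 29.3% lower and 21.0% higher in all 3 pairs, and 9.96% lower and 4.96% higher at an unadjusted p under 0.05. Of genes above the reference, where 14 of the 17 lay, 42.4% were lower in all 3 pairs. Of 25 genes that couple chemokine receptors to the cell, 11 were lower and 3 higher (median -0.30), with the G protein subunit gene Gng2 at -0.74 ± 0.26 and the arrestin gene Arrb1 at -0.66 ± 0.29. These 2 were lower at an unadjusted p under 0.05, and none was higher. With 19 of the 25 above the reference, these counts are close to the shares of all genes.

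A further list held genes that induce chemokine transcription or, like Tnfaip3, restrain it. Of its 23 genes, 4 were lower and 4 higher in all 3 pairs (median -0.07), against 29.3% and 21.0% of all genes. Of the 23, 16 lay above the reference, where the shares of all genes were 42.4% and 9.44%. At an unadjusted p under 0.05 there were 3 lower and 1 higher, near the all-gene shares of 9.96% and 4.96%. Il33, an alarmin cytokine, was at 9.35, 9.47 and 9.65 in wild type and at 7.26, 8.84 and 6.57 in CKO lungs, with no overlap (-1.93 ± 1.23, unadjusted p = 0.00573, adjusted p = 0.367). Tnfaip3, an inhibitor of NF-kB, was at -0.80 ± 0.41 and the epithelial cytokine gene Tslp at -0.73 ± 0.61, while Il1b was at 0.56 ± 0.33. Of 21 genes that bind, clip or present chemokines, 5 were lower and 1 higher (median -0.18), against 29.3% and 21.0% of all genes in all 3 pairs. Of the 21, 16 lay above the reference, where these shares were 42.4% and 9.44%. The 1 that was lower at an unadjusted p under 0.05, as were 9.96% of all genes, was the heparan sulfate carrier Sdc2 at -0.79 ± 0.68. Only the first of the 4 lists kept a median below 0 after cyclic loess normalization (-0.13). The medians of the others were then 0.07 for coupling genes, 0.30 for inducers and inhibitors of transcription and 0.10 for genes that bind, clip or present chemokines. After quantile normalization they were 0.05, 0.26 and 0.08.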

How the data were processed

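Gene expression was measured in the left lung lobe of 6 mouse embryos, 3 wild type and 3 Smad1 CKO, with 1 array each. Each value is an intensity per probe set that the authors deposited unlogged. RMA is named per the submitters' processing notes, with its software not given in the sources used here. Array medians ran from 70.0 to 77.8. Of log2(intensity + 1), limma 3.58.1 (R 4.3.3) fitted the genotype with pairs as a block (eBayes, two-sided), and p-values were adjusted by Benjamini-Hochberg across the 45037 probe sets that are no controls (64 were). Pairs follow the design text and neighbouring sample numbers. The correlation of array deviations from the group mean was 0.258, 0.604 and 0.597 within pairs and 0.215 or lower between them. No array was a copy of another (smallest root mean square log2 distance 0.227). The fit was tested on simulated data.

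Of the probe sets, 34945 had 1 gene symbol, 932 several and 9160 none in the platform annotation, and sets with several were not named. All 48 members matched RefSeq by gene identifier with 0 changed symbols. Among the 18 members with over 1 probe set, 4 had probe sets that differed in direction. By rule, Cxcl15, the 12 members with the smallest p and the 10 brightest were given in full, with up to the 4 of smallest p from each list. Ackr3, Pf4, Sftpd, Napsa, Xist and Eif2s3y fall outside the rule and were named after their values were seen. The members and lists were chosen with earlier results of these data known. Alternatives were no block, quantile or cyclic loess normalization, a pseudocount of 16, a filter on dim probe sets, an intensity trend, other probe sets, and leaving out each pair or array. The number of arrays limits the precision, and p-values measure only the spread between these samples. A two-sided exact permutation cannot reach 0.05, whether of 3 against 3 arrays or of signs within 3 pairs.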

Additional observations from a re-analysis of the deposited data

How the results depend on the processing

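No member passed at an adjusted p under 0.05 in the main test or in any of the 17 alternatives, and the members' median difference (0.23) stayed within 0.05 to 0.35. The count of members higher at an unadjusted p under 0.05, 4 with the pairs, was 0 with no replicate block, 7 after cyclic loess normalization and 1 without dim probe sets, and 0 to 9 when a pair or an array was left out. The count of members lower at that limit, 3 with the pairs, was 5 by the next brightest probe set and 0 to 6 when a pair or an array was left out. With no replicate block the count lower was 2. Among the 20 members left without dim probe sets, 6 were higher and 4 lower in all 3 pairs, since fewer genes were tested, and the receptors' median (0.18) was -0.32. Leaving out a pair gave 20 to 27 members higher and 8 to 10 lower in both pairs left, where fewer pairs have to match. Cxcl15 was lower in all 17 alternatives, from -1.57 to -0.38, with a lowest adjusted p of 0.154. Of the other 17 members followed, 12 kept their direction throughout. Ccl6 ran from -0.88 to 0.34, Ccl9 from -0.14 to 0.30 and Cxcl1 from -0.26 to 1.57 when a pair or an array was left out. Ccl6 turned to 0.18 by its next brightest probe set, 0.11 without pair 3 and 0.34 without Smad1 CKO 3. Ccl9 turned to -0.05 without Smad1 CKO 1, -0.12 without Smad1 CKO 2, -0.03 without pair 2 and -0.14 without wild type 3. Cxcl1 turned to -0.08 without pair 3 and -0.26 without Smad1 CKO 3. By the next brightest probe set Ccr2 turned to -0.15 and Cxcl16 to -0.08. Of all genes at an unadjusted p under 0.05, 33.3% were higher, against 50.8% after quantile and 58.5% after cyclic loess normalization. Fits that leave out 1 array ignore the pairs. The olfactory receptor reference stands in for detection calls, and folds of dim probe sets are those of intensities that hold background.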

Other observations

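Beside the members, 4 chemokine probe sets match several gene symbols and are not named. The brightest was at 9.73, 9.59 and 9.60 in wild type and at 9.71, 9.35 and 8.58 in CKO lungs, a difference of -0.43 ± 0.53 (limma, unadjusted p = 0.144). The other 3 had wild type means of 7.74, 7.08 and 6.25 and differences of 0.17, 0.21 and 0.57, and none passed at an unadjusted p under 0.05. Signal from related genes cannot be separated in these probe sets.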
